A study of Mus musculus with 6 samples.

Results

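The histone deacetylases described here are the 10 genes Hdac1 to Hdac9 and Hdac11, taken by symbol from a table of 24421 genes, and all 10 were detected in every library. They were measured in nuclei sorted from the medial prefrontal cortex, or mPFC, of Foxp2-Cre mice, a line in which Cre recombinase is driven from the Foxp2 gene, a transcription factor gene of deep-layer corticothalamic neurons. All mice had received, 4 weeks before collection, bilateral mPFC injections of an adeno-associated virus expressing GFP fused to KASH, a domain that anchors the tag in the nuclear envelope. The treatment was CFA (complete Freund's adjuvant, an emulsion that causes inflammation and serves as a model of long-lasting pain), with 3 libraries, against saline, with 3 libraries, and each library was made from 10000 sorted nuclei. The animals' age, sex and strain background, and the interval between CFA or saline and collection, are not stated in the labels. Nor do they say whether the libraries came from different animals, so the p-values here reflect library-to-library spread, part of which may be technical.

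Histone deacetylases remove acetyl groups from lysines of histones and other proteins. Class I enzymes (Hdac1, Hdac2, Hdac3 and Hdac8) are mostly nuclear, and Hdac1, Hdac2 and Hdac3 act as the catalytic subunits of corepressor complexes. Class IIa enzymes (Hdac4, Hdac5, Hdac7 and Hdac9) have little deacetylase activity of their own, bind MEF2 transcription factors, and shuttle between nucleus and cytoplasm: calcium-activated kinases phosphorylate them, and 14-3-3 proteins then hold them outside the nucleus. Hdac6, of class IIb, is a cytoplasmic deacetylase of tubulin, and Hdac11 is the only class IV member. In neurons, class I and class IIa enzymes are known for their part in activity-dependent transcription and memory.

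Total counts were 10663201 to 11850741 in the CFA libraries and 9673038 to 11117681 in the saline libraries. The members had between 53 counts (Hdac8 in saline replicate 1) and 2935 counts (Hdac3 in CFA replicate 1) in a library. Foxp2 lay between 24.0 and 43.7 CPM (counts scaled to library size with TMM factors) and Slc17a7, the cortical vesicular glutamate transporter, between 1930 and 2650 CPM, so the defining excitatory marker was abundant throughout. Y-linked Eif2s3y was at 157 to 255 CPM in all 6 libraries and Xist, transcribed from the inactive X, had 0 counts in all but CFA replicate 3, where it had 10 counts. Hdac6 and Hdac8 are X-linked. Saline replicate 3 stood apart on the first principal component (27.9% of the variance), at -50.4 against 29.9 and 35.8 in the other saline libraries and -19 to 4.19 in the CFA libraries, and each member's log2 fold change is given with and without it.

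Levels of the family spanned a wide range when given per exon length (TPM, a length-scaled unit with the same total in each library). Hdac3, the catalytic subunit of the NCoR and SMRT corepressor complexes, was the most abundant, at 316 ± 14.8 TPM with CFA and 312 ± 75.5 TPM with saline (SD, n = 3 each), above 95.8% of tested genes on the mean of the 6 libraries. Hdac2, which pairs with Hdac1 in the Sin3, NuRD and CoREST complexes, followed at 163 ± 13.2 TPM with CFA and 172 ± 26.9 TPM with saline. Its close paralogue Hdac1 was far lower, at 27.1 ± 2.42 TPM with CFA and 29.8 ± 8.68 TPM with saline, and the ratio of Hdac2 to Hdac1 within a library was 5.49 to 6.98 in CFA and 3.82 to 9.29 in saline. Hdac11 came next, at 119 ± 32.7 TPM with CFA and 109 ± 27.8 TPM with saline. Hdac3, Hdac2, Hdac11 and Hdac5 kept this order in each of the 6 libraries, with Hdac2 only 1.02 times Hdac11 in the closest one.

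Below Hdac3, Hdac2 and Hdac11 the order was less clear. Hdac5 averaged 41.1 ± 8.33 TPM with CFA and 44.3 ± 14.5 TPM with saline, and it exceeded Hdac4 in 2 of 3 CFA and 1 of 3 saline libraries. Hdac4 (28.4 ± 3.84 TPM with CFA and 41.8 ± 2.68 TPM with saline) exceeded Hdac1 in 2 of 3 CFA and 3 of 3 saline libraries. Next came Hdac6, at 33.1 ± 2.41 TPM with CFA and 23.0 ± 4.34 TPM with saline. Hdac6 was above Hdac1 in 3 of 3 CFA libraries and below it in 2 of 3 saline libraries. Hdac7 (10.6 ± 3.28 TPM with CFA and 12.4 ± 10.5 TPM in saline), Hdac8 (11.6 ± 1.25 and 9.51 ± 2.38 TPM) and Hdac9 (10.9 ± 1.94 and 7.80 ± 0.820 TPM) formed the lowest group, and neighbours in it changed places between libraries. Hdac9 has the longest gene model of the family, at 10866 bases, and its place in this order depends on that length. As sums of TPM, class I made up 65.9% to 72.6% of the family in CFA and 66.2% to 70.8% in saline libraries, class IIa 11.4% to 12.3% in CFA and 12.3% to 15.0% in saline libraries. The annotated end of Hdac4 in GENCODE M21 lies 3970 bases past that of the table's gene model (Hdac5: 1315 bases, Hdac3: 1127 bases), so reads in such ends were not counted, and the levels per length of these genes depend on the model.

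**Figure D1:**
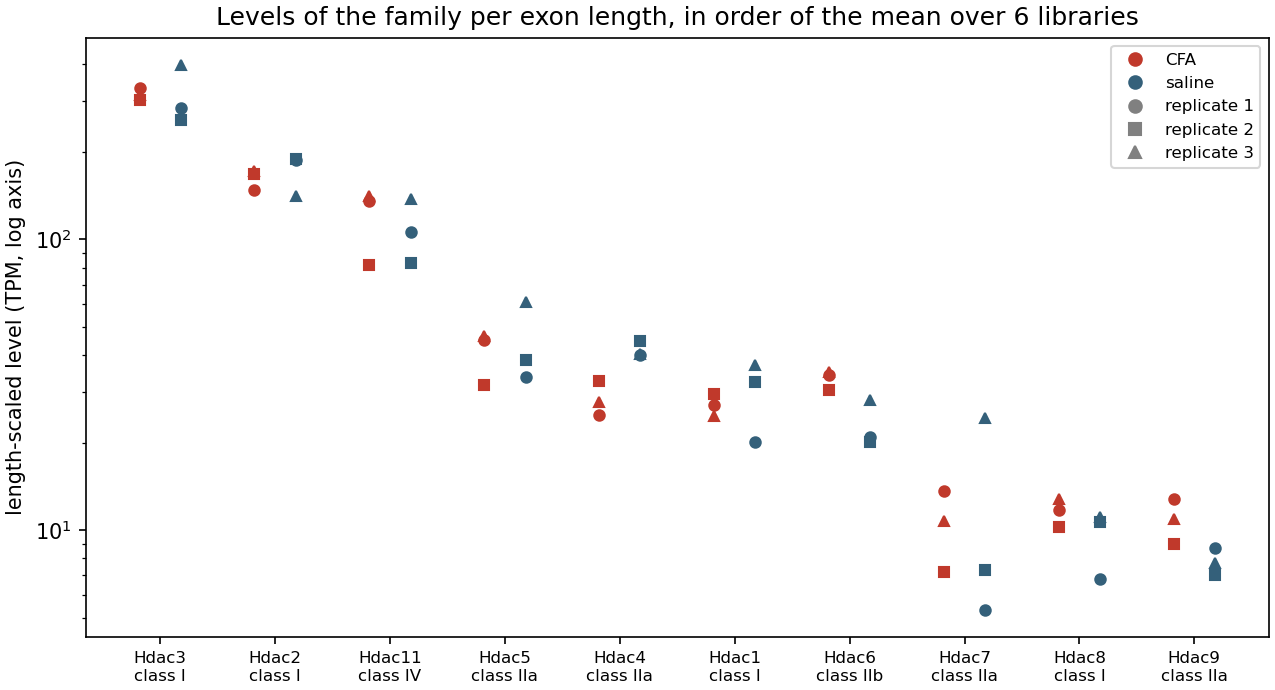
Level of each histone deacetylase in TPM (log axis) in each library, CFA left and saline right, with 1 marker shape per replicate number. Genes are ordered by their mean over 6 libraries: Hdac3 is at 257 to 398 TPM, while Hdac7, Hdac8 and Hdac9 lie between 5.34 and 24.4 TPM.

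In libraries made from many nuclei, fewer cells of a type and less RNA per cell cannot be told apart. The comparison of CFA with saline asked whether transcripts of these enzymes differ in mice given the inflammatory agent. No member passed over all genes: after Benjamini-Hochberg adjustment of edgeR's quasi-likelihood test, 0 of 10 members and 0 of 13560 tested genes (0%) had an adjusted p under 0.05, and the members' adjusted p was 1.0 for each. DESeq2, limma-voom and the likelihood ratio test also called 0 members. Over all genes DESeq2 called 8, limma-voom 0 and the likelihood ratio test 11. At an unadjusted p under 0.05 there were 3 members, Hdac6 and Hdac9 higher and Hdac4 lower in CFA, against 3.22% of all tested genes (1.35% higher and 1.87% lower). The same 3 members were those whose CFA and saline values did not overlap, against 7.51% of tested genes (3.55% higher and 3.97% lower). The members were chosen with earlier results of these data known, so setting them against these shares is no test of the family. The log2 fold changes of the family had a median of -0.02, with 5 positive and 5 negative, beside a median of -0.001 over all genes tested. The count of 3 changed when 1 library was left out, which also leaves fewer libraries for the test. It was 0 members without saline replicate 2, and 1 member without CFA replicate 1 or without CFA replicate 3. Without saline replicate 3 there were again 3, Hdac4, Hdac6 and Hdac7. The log2 fold changes without saline replicate 2 were 0.48 for Hdac6, -0.47 for Hdac4 and 0.43 for Hdac9.

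The 250 bases before the RefSeq start sites (GRCm38.p6) are shown for the 3 members with the largest differences and for Hdac5, whose window holds a match to the motif of MEF2, the transcription factor that class IIa enzymes bind. Sequences run 5′ to 3′ on the gene's strand, and capitals mark matches to CCAAT, to the GC box GGGCGG and to MEF2 on either strand.
Hdac6 (chrX:7947890-7948139, minus strand): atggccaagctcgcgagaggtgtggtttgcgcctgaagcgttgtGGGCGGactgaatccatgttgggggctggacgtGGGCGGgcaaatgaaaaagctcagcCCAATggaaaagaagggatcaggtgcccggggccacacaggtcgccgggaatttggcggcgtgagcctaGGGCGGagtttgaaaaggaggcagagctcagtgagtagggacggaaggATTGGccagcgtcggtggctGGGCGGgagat
Hdac4 (chr1:92180342-92180591, minus strand): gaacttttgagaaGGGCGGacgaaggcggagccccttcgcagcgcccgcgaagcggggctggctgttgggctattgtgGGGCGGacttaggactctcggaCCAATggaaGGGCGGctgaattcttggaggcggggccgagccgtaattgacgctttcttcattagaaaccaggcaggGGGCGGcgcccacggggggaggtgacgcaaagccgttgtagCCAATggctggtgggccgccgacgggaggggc
Hdac9 (chr12:34917096-34917345, minus strand): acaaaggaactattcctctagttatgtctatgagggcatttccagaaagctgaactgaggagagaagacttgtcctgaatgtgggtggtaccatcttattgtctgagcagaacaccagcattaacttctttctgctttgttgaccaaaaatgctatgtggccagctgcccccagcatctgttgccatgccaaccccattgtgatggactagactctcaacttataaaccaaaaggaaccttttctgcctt
Hdac5 (chr11:102230173-102230422, minus strand): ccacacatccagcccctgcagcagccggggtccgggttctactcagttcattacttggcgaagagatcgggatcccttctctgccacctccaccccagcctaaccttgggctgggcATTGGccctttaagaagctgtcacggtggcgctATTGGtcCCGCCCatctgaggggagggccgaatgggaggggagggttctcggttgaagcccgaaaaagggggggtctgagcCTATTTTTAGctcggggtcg
Hdac6 and Hdac4, the members with the smallest p in opposite directions, each held 2 CCAAT and 4 GGGCGG matches, in windows of 61.2% and 65.2% GC. Hdac9 held none of the 3 motifs, at 44.4% GC, and the same was true of a second annotated Hdac9 start, inside the gene. Hdac5 held 2 CCAAT matches, 1 GGGCGG match and the MEF2 match. Over 32851 windows of the same length, 33.8% held CCAAT, 32.7% held GGGCGG and 2.92% held the MEF2 motif, with a median GC content of 52.4%. Windows of 8 members were read, 12 in all, and none is reported here for Hdac1 and Hdac3. Of the 8 members, 5 held CCAAT, 6 held GGGCGG and 1 held the MEF2 motif in at least 1 window. Members with overlapping groups, such as Hdac8 (CCAAT), Hdac2 (GGGCGG) and Hdac11 (both), were among them. These counts are by member, and Hdac7 and Hdac9 had more than 1 window, whereas the shares over 32851 windows are by window. The counts and the shares are therefore not in the same unit. The start of Hdac4 shown lies 31948 bases upstream of the first exon of the table's model, while those of Hdac6, Hdac9 and Hdac5 coincide with it. A match describes these letters and is no evidence of binding.

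Hdac6, the tubulin deacetylase (chromosome X, 7930122 to 7947889, mm10, minus strand), had 51.9, 49.9 and 57.9 CPM in the CFA libraries, against 35.2, 33.2 and 41.1 CPM in the saline libraries. All CFA libraries lay above all saline libraries, and saline replicate 3 was the nearest. The log2 fold change was 0.54 ± 0.20 (SE, 95% interval 0.13 to 0.96), a 1.46-fold higher mean, with an unadjusted p of 0.0144 and an adjusted p of 1.0 by edgeR's quasi-likelihood test. The value was positive in all 14 alternative settings, from 0.48 to 0.64, at 0.64 without saline replicate 3. As the groups did not overlap, leaving out 1 library could hardly reverse the sign. The unadjusted p was above 0.05 without CFA replicate 3 (0.0632) and without saline replicate 2 (0.0520). Relative to the summed TPM of the family, Hdac6 made up 4.32% to 4.38% in CFA and 2.92% to 3.16% in saline libraries. Its spread within groups, 7.78% of the mean in CFA and 11.3% in saline, compares with the 4.09% and 5.09% that counting alone gives.

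Hdac4, a class IIa repressor that is exported from the nucleus upon neuronal activity (chromosome 1, 91932749 to 92148393, minus strand), had 36.2, 51.0 and 43.6 CPM in the CFA libraries, against 64.1, 70.6 and 56.5 CPM in the saline libraries. The groups did not overlap, with CFA replicate 2 and saline replicate 3 nearest to each other. Its log2 fold change was -0.55 ± 0.20 (SE, 95% interval -0.98 to -0.12), with an unadjusted p of 0.0161 and an adjusted p of 1.0 in the same test. The value stayed negative in the 14 alternative settings, between -0.68 and -0.44, at -0.63 without saline replicate 3. Here too, leaving out 1 library could hardly reverse the sign of groups that did not overlap. The unadjusted p was above 0.05 without CFA replicate 1, the lowest library (0.0816), and without saline replicate 2, the highest (0.0651).

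Hdac9, the class IIa member that is also made as a form lacking the catalytic domain (chromosome 12, 34047582 to 34917095, minus strand), had 51.1, 38.5 and 47.5 CPM in the CFA libraries, against 38.2, 30.5 and 29.7 CPM in the saline libraries. CFA replicate 2 and saline replicate 1 almost met, and with RLE in place of TMM scaling the groups overlapped. The log2 fold change was 0.48 ± 0.21 (SE, 95% interval 0.03 to 0.93), with an unadjusted p of 0.0391 and an adjusted p of 1.0 by edgeR's quasi-likelihood test. It ranged from 0.38 to 0.60 over the alternatives, with 0.41 without saline replicate 3. The unadjusted p ran from 0.0766 to 0.147 when any one of 4 libraries was left out (replicates 1 and 3 of CFA, replicates 2 and 3 of saline), and was 0.0593 with the replicate number as a block. Counts over the 10866 bases of the gene model do not tell its forms apart.

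**Figure D2:**
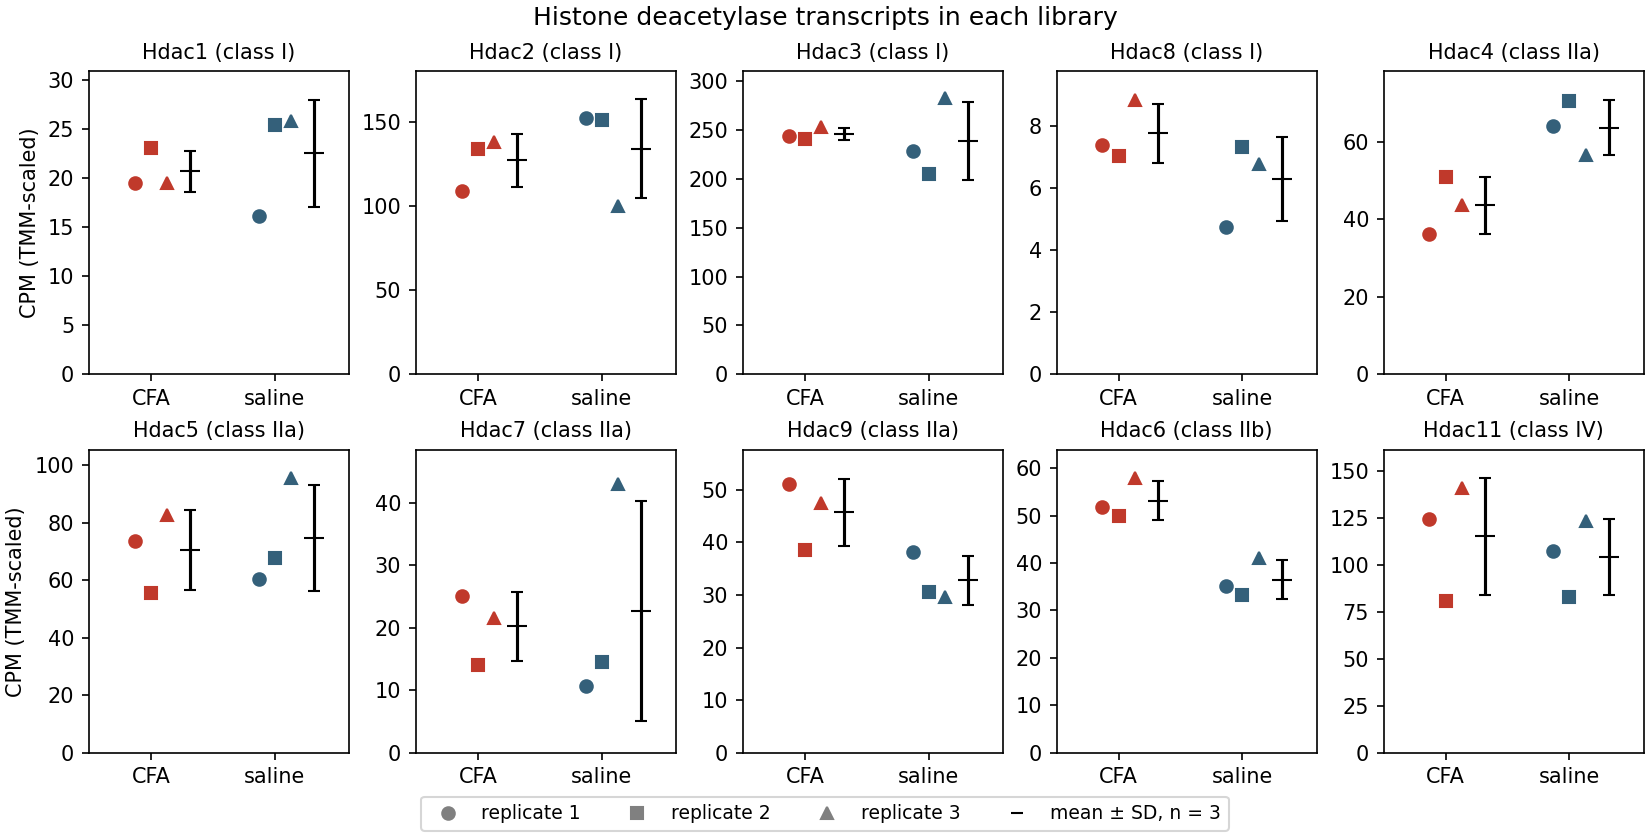
CPM of each histone deacetylase in the 3 CFA libraries (red) and the 3 saline libraries (blue), with a marker shape per replicate number and black bars for mean ± SD (n = 3). Hdac6 and Hdac9 are higher and Hdac4 is lower in every CFA library than in any saline library, while the other 7 genes overlap.

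In the family's other class IIa genes the groups overlapped. Hdac5, a paralogue of Hdac4 (chromosome 11, 102195747 to 102230172, minus strand), had 73.5, 55.4 and 82.7 CPM with CFA and 60.5, 67.8 and 95.6 CPM with saline, a log2 fold change of -0.08 ± 0.22 (SE, 95% interval -0.55 to 0.39). It turned positive without saline replicate 3 (0.14) and without CFA replicate 2 (0.0642). A microRNA gene, Mir8101, shares 111 bases with its exons. Hdac7, best known from thymocytes and the endothelium (chromosome 15, 97792664 to 97844502, minus strand), had 25.0, 14.1 and 21.5 CPM with CFA and 10.7, 14.5 and 43.0 CPM with saline. Its saline spread, 77.6% of the mean against 6.55% from counting alone, came from replicate 3, which was 4.00 times replicate 1. The log2 fold change of Hdac7 was -0.17 ± 0.42 (95% interval -1.06 to 0.73) with all libraries and 0.68 without saline replicate 3, where the unadjusted p was 0.0451 and the adjusted p 0.730. Markers of endothelial and mural cells, a list of 5 of which 2 were tested, summed to 2.11 to 5.41 CPM with CFA and 2.74 to 5.01 CPM with saline. The lowest saline sum, 2.74 CPM, was that of replicate 3, where Hdac7 was highest. Cldn5, Flt1, Pecam1 and Pdgfrb of that list each had 0 counts in at least 1 library, so these sums rest on few counts. The part of these cells in the values of Hdac7 was not tested.

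Within class IIa, Hdac9 took 11.1% to 13.2% of the summed TPM with CFA and 5.77% to 9.88% in saline libraries, without overlap. The share of Hdac4 was 25.8% to 40.6% in CFA and 30.3% to 46.0% in saline libraries. It overlapped, with saline replicate 3 at 30.3%, the library in which Hdac7 and Hdac5 were highest. The ratio of Hdac9 to Hdac4 was 0.512, 0.274 and 0.395 in CFA and 0.217, 0.157 and 0.191 in saline libraries. The ratio of Hdac6 to Hdac4 was 1.37, 0.933 and 1.26 in CFA and 0.523, 0.448 and 0.693 in saline libraries. These ratios restate the 3 differences above within each library and are no further support for them.

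**Figure D3:**
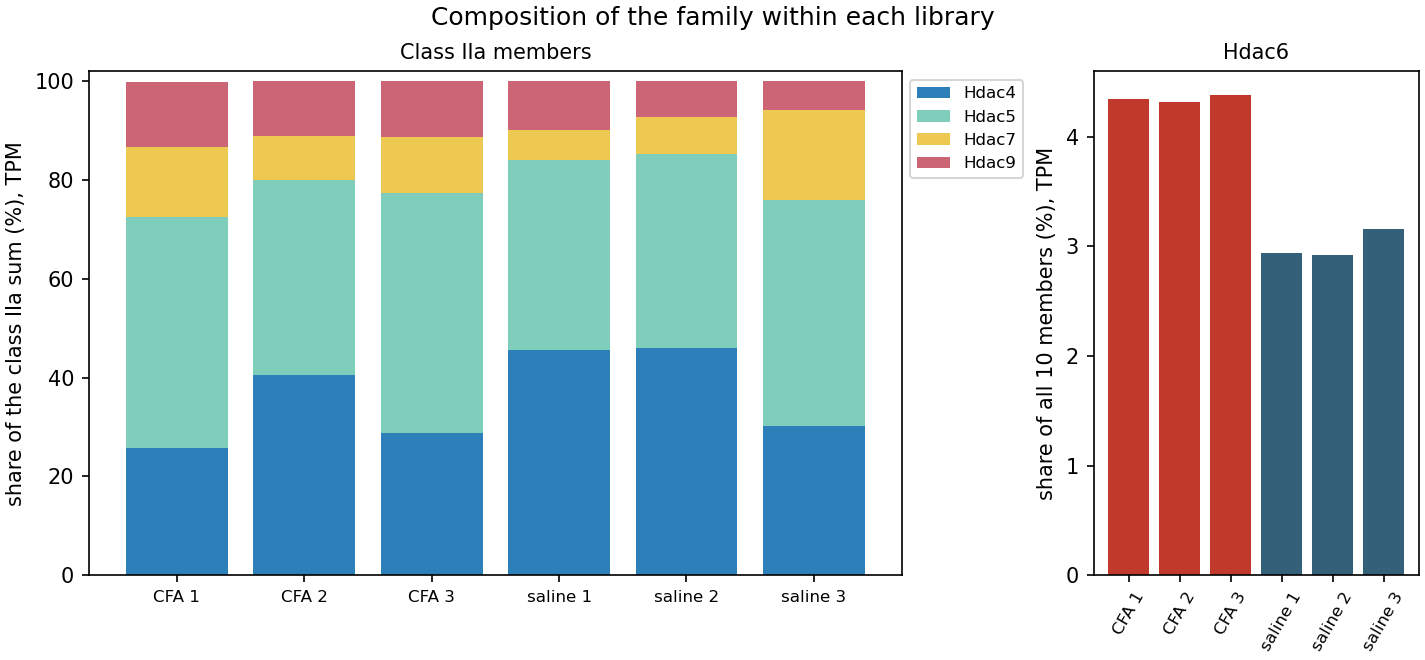
Left, share of each class IIa gene in the class IIa sum of TPM, by library, CFA left and saline right. Right, share of Hdac6 in the summed TPM of all 10 members, at 4.32% to 4.38% in the CFA libraries and 2.92% to 3.16% in the saline libraries.

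Over the 6 libraries, class I members did not differ by more than the spread between libraries. Hdac3 (chromosome 18, 37936971 to 37954988, minus strand) had 244, 241 and 253 CPM with CFA and 229, 205 and 283 CPM with saline, a log2 fold change of 0.04 ± 0.17 (SE, 95% interval -0.33 to 0.41). The SD of its CFA libraries was 2.54% of their mean, with 2 saline libraries below them and saline replicate 3 above. Without that library the value was 0.18, and every CFA library was above the saline libraries. Hdac2 (chromosome 10, 36974544 to 37001888, plus strand) had 109, 134 and 138 CPM with CFA and 152, 151 and 100 CPM with saline, with saline replicate 3 below all others. Its log2 fold change was -0.08 ± 0.20 with all libraries (95% interval -0.50 to 0.34) and -0.25 without that replicate, when the groups no longer overlapped. With saline replicate 3 left out, 5 of 10 members (Hdac2, Hdac3, Hdac4, Hdac6 and Hdac9) had no overlap, against 22.5% of tested genes, and with CFA replicate 2 left out it was also 5 (Hdac4, Hdac6, Hdac8, Hdac9 and Hdac11), against 16.4%. Groups of 2 against 3 overlap less often by construction. Hdac1 (chromosome 4, 129516104 to 129542646, minus strand) had 19.5, 23.1 and 19.5 CPM with CFA and 16.1, 25.4 and 25.8 CPM with saline, a log2 fold change of -0.12 ± 0.25 (95% interval -0.66 to 0.43). Without saline replicate 3 it was -0.00399. Hdac8, which deacetylates the cohesin subunit Smc3 (chromosome X, 102284640 to 102505148, minus strand), was the least counted member. It had 7.40, 7.05 and 8.84 CPM with CFA and 4.74, 7.33 and 6.79 CPM with saline, and counting alone gives a spread of 10.7% in CFA and 12.3% in saline. Its log2 fold change was 0.30 ± 0.38 (SE, 95% interval -0.51 to 1.12), and 0.36 without saline replicate 3.

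Hdac11, which acts as a fatty-acid deacylase besides its deacetylase activity (chromosome 6, 91156815 to 91174683, plus strand), had 124, 80.9 and 141 CPM with CFA and 107, 82.8 and 123 CPM with saline. Replicate 2 was the lowest in both groups. The log2 fold change was 0.15 ± 0.22 (SE, 95% interval -0.33 to 0.62) with an unadjusted p of 0.520 by edgeR's quasi-likelihood test, and without saline replicate 3 the log2 fold change was 0.28. For the 7 members with overlapping groups a missed threshold does not show equal levels. Changes of up to 1.33-fold higher or 0.795 times for Hdac3, the member with the narrowest interval, and up to 2.17-fold higher for Hdac8 lay within the intervals.

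**Figure D4:**
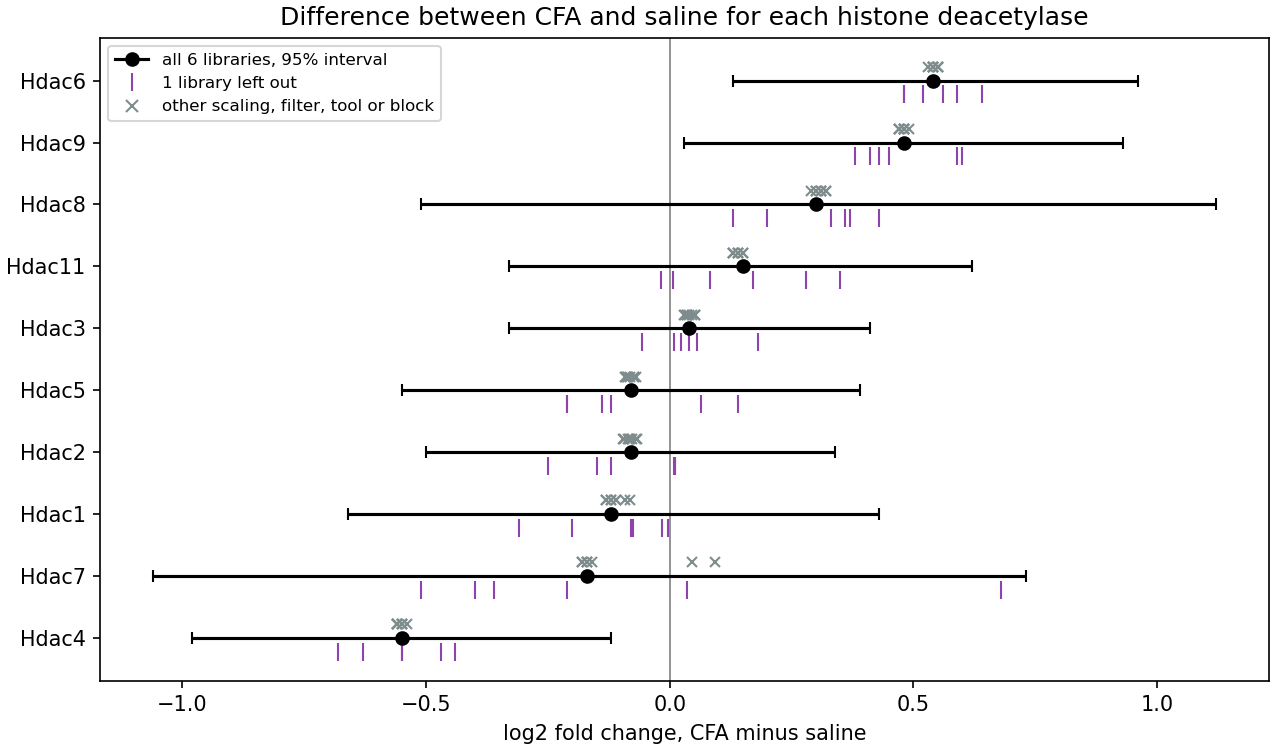
Log2 fold change (CFA minus saline) of each histone deacetylase with its 95% interval over 6 libraries (black), with 1 library left out (purple ticks) and under another scaling, filter, tool or replicate block (grey crosses). The intervals of Hdac6, Hdac9 and Hdac4 lie off 0, and Hdac7 runs from -0.51 to 0.68 as single libraries are left out.

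Partners of these enzymes showed few differences. Over 9 lists, 76 of 78 genes were tested: 0 were called over all genes in edgeR's quasi-likelihood test, and 2 (2.63%) had an unadjusted p under 0.05, both lower, against the 3.22% of all genes given above. Both belong to NuRD, the nucleosome remodelling complex built on Hdac1 and Hdac2, of which 11 of 11 genes were tested. Mbd2, its methyl-CpG-binding subunit, had 4.83, 12.7 and 8.36 CPM with CFA and 33.0, 27.8 and 8.61 CPM with saline. Its groups overlapped, with saline replicate 3 among the CFA libraries, and the log2 fold change was -1.43 ± 0.44 (SE; unadjusted p = 0.00612 and adjusted p = 1.0, edgeR's quasi-likelihood test). Mta1, a scaffold subunit, had 10.2, 13.1 and 13.2 CPM with CFA and 27.5, 27.6 and 14.6 CPM with saline. The log2 fold change was -0.93 ± 0.29 (SE; unadjusted p = 0.00639 and adjusted p = 1.0, same test) without overlap between groups, and again saline replicate 3 was nearest to the CFA libraries. Without that library the values were -1.82 for Mbd2 and -1.18 for Mta1. NuRD as a list was balanced, with 6 positive and 5 negative values and a median of 0.02.

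In the CoREST complex, which joins Hdac1 and Hdac2 to a histone demethylase, 5 of 10 genes were positive and 5 negative, with a median of -0.07. Zmym2, a zinc finger subunit, averaged 77.4 ± 2.76 CPM with CFA and 100 ± 18.9 CPM with saline, and Gse1, a subunit, 27.1 ± 1.59 and 20.0 ± 4.03 CPM, with unadjusted p-values of 0.0637 and 0.0812 in edgeR's quasi-likelihood test. The 15 genes of the Sin3 complex had a median of -0.00, and the 2 with the smallest p were Arid4a (74.6 ± 4.95 CPM with CFA and 87.7 ± 10.1 CPM in saline) and Sap30 (8.09 ± 2.80 and 5.50 ± 2.24 CPM). NCoR and SMRT, the complexes of Hdac3, had 2 of 5 genes positive and a median of -0.14. Their Tbl1x, a transducin-like exchange factor, was at 40.7 ± 1.94 CPM with CFA and 46.2 ± 10.8 CPM with saline, and Gps2 at 47.5 ± 3.18 and 53.7 ± 11.9 CPM. In the list of MiDAC and Mier scaffolds, 2 of 5 were positive, with a median of -0.12. Mier3 was at 48.4 ± 3.36 CPM with CFA and 41.0 ± 11.1 CPM with saline, and Mier1 at 20.0 ± 5.04 and 23.9 ± 5.71 CPM.

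Partner lists of class IIa enzymes had medians between -0.08 and 0.02. Among MEF2 factors 3 of 4 were tested, with log2 fold changes between -0.11 and 0.08: Mef2a averaged 132 ± 10.3 CPM with CFA and 143 ± 19.1 CPM with saline, and Mef2d 68.4 ± 20.7 and 64.8 ± 3.92 CPM. Of the 15 kinases listed 14 were tested, with 5 positive and 9 negative values, a median of -0.08 and a range of -1.0 to 0.30. The lowest was Prkd2, a protein kinase D, at 2.91, 0.970 and 1.54 CPM with CFA and 7.69, 0.556 and 2.63 CPM with saline, with overlapping groups (log2 fold change -1.0 ± 0.82, SE). Camk2d, a calcium/calmodulin-dependent kinase subunit, was at 77.0 ± 13.1 CPM with CFA and 93.2 ± 24.0 CPM with saline, and Camk1g at 62.0 ± 8.79 and 50.3 ± 18.6 CPM. The 6 genes for 14-3-3 proteins lay between -0.14 and 0.04, the smallest p being those of Ywhah (996 ± 80.7 CPM with CFA and 1100 ± 359 CPM in saline) and Ywhab (707 ± 52.9 and 752 ± 196 CPM). Sirtuins, the NAD-dependent deacetylases of class III, had 5 of 7 genes positive and a median of 0.01. Sirt1 was at 17.0 ± 4.49 CPM with CFA and 22.5 ± 5.34 CPM with saline, and Sirt4 at 18.8 ± 3.92 and 22.3 ± 6.45 CPM.

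Marker sums of astrocytes and oligodendrocyte precursors did not overlap between the groups. The 6 astrocyte markers summed to 204 to 285 CPM with CFA and 178 to 186 CPM with saline, with 3 of 6 log2 fold changes positive, and the 5 oligodendrocyte precursor markers to 26.0 to 38.8 CPM and 16.0 to 22.9 CPM, with 3 of 4 tested positive. Striatal projection neuron markers summed to 191 to 335 CPM with CFA and 274 to 699 CPM with saline, with 5 of 5 tested negative, and corticothalamic markers to 606 to 691 CPM and 616 to 798 CPM, with 5 of 6 negative. Microglia markers summed to 19.8 to 45.8 CPM with CFA and 14.9 to 29.0 CPM with saline, with 5 of 6 positive. Excitatory neuron markers summed to 2390 to 3170 CPM with CFA and 2470 to 2830 CPM with saline, with 3 of 4 positive. Sums of inhibitory neuron markers (108 to 177 CPM with CFA and 108 to 168 CPM in saline) and oligodendrocyte markers (300 to 464 and 336 to 412 CPM) overlapped, with 6 of 6 inhibitory and 3 of 6 oligodendrocyte values positive. By edgeR's quasi-likelihood test 3 striatal and 1 corticothalamic marker were lower at an unadjusted p under 0.05, and 2 astrocyte, 2 precursor and 1 microglia marker were higher. Over all tested genes 1.87% were lower and 1.35% higher at that threshold, and no gene passed after adjustment. Of these lists, Pdgfra, Gpr17, Olig2, Itgam and Adora2a had 0 counts in at least 1 library, and no marker was at 0 in all. The part of these cell types in the values of Hdac6, Hdac4 and Hdac9 was not tested.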

How the data were processed

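RNA from 10000 sorted nuclei per library was amplified with the Smart-seq V4 kit (9 PCR cycles) and 300 ng of cDNA entered Nextera XT preparation, per the labels' protocols. Per the file headers, the authors deposited raw counts by gene, with each model's exon length. The submitters' processing notes name Trim Galore, HISAT2 2.2.1, SAMtools 1.13, featureCounts 2.0.1, edgeR 3.32.1 and mm10. For strand and multiply mapped reads, settings are not given in the sources here, and the kits do not mark strand, so reads in the 29 bases that Hdac7 exons share with Slc48a1 on the opposite strand (118 bases for Gse1 and Gins2) cannot be told apart. No library was a copy of another within sampling noise.

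Counts were tested over the whole table by the quasi-likelihood method of edgeR (version 4.0.16 in R 4.3.3; TMM, filterByExpr, treatment as the only term, Benjamini-Hochberg over 13560 genes, threshold 0.05), a procedure checked on simulated data with 200 changed genes. Standard errors come from the F statistic, and intervals are at 95%. Levels per length (TPM) used the table's exon lengths. A count of 3, the limit that 0 allows, equals 0.250 to 0.304 CPM, for counting error only. Amplified reads are not independent molecules. Promoter windows came from RefSeq. Named genes were all members and, from each partner list, the 2 genes with the smallest p. Prkd2 was named besides, as the gene with the lowest log2 fold change among the kinases. The members and lists were chosen with earlier results of these data known. Alternatives used DESeq2 1.42.0, limma 3.58.1, other scalings and filters, a replicate block and leaving out each library.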

Additional observations from a re-analysis of the deposited data

How the results depend on the processing

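The 10 members had 0 calls under each of the 14 alternatives. Over all genes the count of calls was 0 in the fit described above, 9 without a filter on low counts, 8 with DESeq2, 11 with the likelihood ratio test and 6 with the replicate block, and 0 to 5 with 1 library left out (5 without saline replicate 3). The number of members with an unadjusted p under 0.05 was 0 to 3 with 1 library left out, and the number without overlap was 3 to 5, against 13.4% to 22.5% of all tested genes. Without CFA replicate 2 and without saline replicate 3 it was 5.

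Hdac4, Hdac6, Hdac8 and Hdac9 kept their sign in the 14 alternatives, as did Hdac1, which ran from -0.31 to -0.00399. For Hdac4, Hdac6 and Hdac9, whose groups did not overlap, leaving out 1 library could hardly reverse the sign. Hdac7 turned positive with limma-voom (0.0934) and the replicate block (0.0460), and ran from -0.51 to 0.68 with 1 library left out. Ranges that crossed 0 when 1 library was left out were -0.25 to 0.0114 for Hdac2, -0.0568 to 0.18 for Hdac3, -0.21 to 0.14 for Hdac5 and -0.0190 to 0.35 for Hdac11. The cause of these reversals was not tested. The labels do not say whether a replicate number was shared between the groups. Correlations of deviations from the group means were -0.079, 0.025 and -0.069 between same-numbered libraries, and -0.079 to 0.146 between the others. With means of 3 libraries, such values cannot decide whether the numbers pair the libraries. With the replicate block, 2 members, Hdac4 and Hdac6, had an unadjusted p under 0.05, and Hdac9 was at 0.0593. Counting error was largest for Hdac8, at 53 to 92 counts per library.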
